A study of Mus musculus with 36 samples.

Results

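The clustered protocadherin genes on mouse chromosome 18 were examined as 41 first exons, each taken with the 1000 bp upstream of it. They were all first exons of genes whose symbols start with Pcdha, Pcdhb or Pcdhg in the GENCODE vM1 annotation of mm9, and they are 41 of 21427 such windows over the autosomes. The other windows are of protein-coding genes, with 1 window per gene, whereas a member gene could give several. Of the 41, 40 are of protein-coding genes and 1 (Pcdhb20) is of a gene annotated as a pseudogene. The alpha cluster gave 10 windows, the beta cluster 22 and the gamma cluster 9. The annotation gathers the alpha exons under the entries Pcdha11 and Pcdha3 and the gamma exons under Pcdhgc5. Alpha and gamma exons are therefore called here by transcript name, which does not identify the isoform, and the C-type isoforms could not be matched by name.

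Clustered protocadherins are cell surface adhesion molecules best known from neurons, where each cell uses a small choice of isoforms and so gains a surface identity. In the alpha and gamma clusters each variable first exon has its own promoter and encodes the extracellular, transmembrane and proximal cytoplasmic parts, and it is spliced to a shared set of constant exons. The beta genes are single-exon genes with no constant exons. Promoter choice in neurons is tied to DNA methylation and to CTCF and cohesin, and the C-type exons lie nearest to the constant exons.

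Methylation was measured by whole-genome bisulfite sequencing of liver from 24 mice, all sacrificed at week 20, in 8 groups of 3. The parents were male and female C57BL/6N (B6) and C3H/HeN (C3) mice that had been bred, so the parental females had borne litters. The F1 mice were males and virgin females of B6C3F1 (B6 dam and C3 sire) and of C3B6F1 (C3 dam and B6 sire). Each cross came from 3 families of sire, dam and F1 mice, so parents and F1 animals are related, but the labels do not say which animals share a family.

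Autosomal coverage ranged from 19.4 to 32.8 reads per CpG between animals, and the share of methylated reads over all autosomal CpGs ranged from 75.1% to 77.5%. The 41 windows held 4109 distinct CpGs, covered by 17.6 to 34.9 reads per CpG in each animal. Hepatocyte markers as a check of the tissue had window methylation of 19.4% to 66.1% over 8 genes, and leukocyte markers 71.3% to 89.3% over 6 genes. The endothelial markers ranged from 3.27% to 80.6% over 4 genes and the neuron markers from 2.42% to 72.5% over 4 genes. Whole liver holds several cell types, whose shares cannot be told apart from the level within each cell.

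Most clustered protocadherin first exons were partly methylated in liver, and the 3 clusters differed in level. Weighted methylation (methylated reads over all reads of a cluster's windows) was 60.1% ± 1.87 (SD, n = 24) in the beta cluster. It was 50.9% ± 1.92 in the alpha cluster and 31.8% ± 1.44 in the gamma cluster. Across animals the beta level had a lowest, median and highest value of 57.6%, 60.1% and 64.5%. The alpha values were 47.5%, 50.9% and 54.9%, and the gamma values 28.3%, 31.8% and 34.1%. The order beta, alpha, gamma held in each of the 24 animals, with beta 7.05 to 12.2 percentage points above alpha and alpha 15.7 to 23.3 points above gamma. These levels are sums over chosen members and were given no test. They also depend on which exons the annotation lists: with the long open reading frames described below, the gamma level was 40.4%.

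Of the 41 windows, 40 had a mean between 20% and 80%. In that range lay 32.7% of the 19927 windows tested over the genome, whose median was 18.6% with quartiles of 5.35% and 69.0%. The member windows had a median of 56.8%, and all 41 passed the filter of at least 5 CpGs and 30 counts in every animal.

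**Figure D1:**
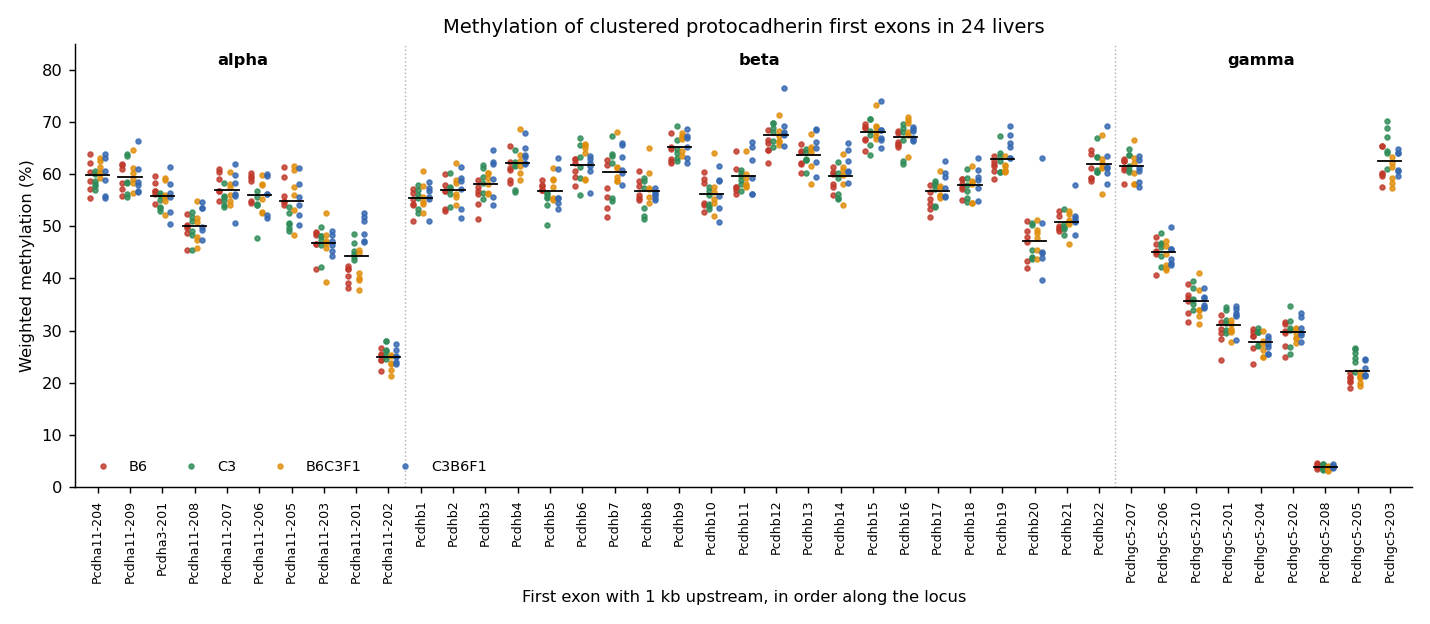
Weighted methylation (%) of each first exon with 1 kb upstream, in order along the locus. Each point is 1 animal, coloured by strain or cross (6 animals each), and the bar is the mean of 24 animals. Pcdha11-202 (24.9%) and Pcdhgc5-208 (3.78%) lie far below their neighbours, and the beta windows between 47.2% and 68.1%.

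Within the alpha cluster the level was lowest in the exons nearest to the constant exons. Pcdha11-202 (chr18:37303623-37306184), the last variable exon before them, had a lowest, median and highest value of 21.2%, 25.1% and 28.1% over the 24 animals. No animal's value for it reached those of Pcdha11-201 (chr18:37249790-37252225), the exon before it, which were 37.7%, 44.4% and 52.5%. Pcdha11-203 was next lowest with 39.3%, 47.2% and 52.5%. The first 2 exons of the cluster, Pcdha11-204 and Pcdha11-209, were the highest, with means of 59.8% and 59.6%. Pcdha11-207, in the middle of the cluster, followed with 56.9%. The ranges of these 3 overlapped. The level did not fall evenly along the cluster: Pcdha11-208, on the 5′ side of Pcdha11-207, averaged 50.1%.

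The beta windows were the most alike in level, between 47.2% and 68.1% with a median of 59.7%. Pcdhb15, Pcdhb12 and Pcdhb16 were the highest, with means of 68.1%, 67.5% and 67.2%. Their lowest and highest animals were 63.7% and 74.0%, 62.1% and 76.5%, and 62.0% and 70.9%, ranges that overlapped. Pcdhb20, with an annotated first exon of only 182 bp and 9 CpGs in its window, was the lowest at 47.2%. An open reading frame of over 2000 bp at the same gene, with 1 kb upstream and 73 CpGs, had 60.6%, and among the long frames at annotated beta exons Pcdhb21 was the lowest at 49.97%. Pcdhb21 followed at 50.9% and Pcdhb1, the most upstream beta gene, at 55.4%. The windows of Pcdhb19 and Pcdhb20, and those of Pcdhb21 and Pcdhb22, overlap and share CpGs.

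The gamma windows spanned the widest range. The first annotated exon, Pcdhgc5-207 (chr18:37833989-37836561), averaged 61.5%. The next ones along the cluster, Pcdhgc5-206, Pcdhgc5-210, Pcdhgc5-201, Pcdhgc5-204 and Pcdhgc5-202, averaged 44.98%, 35.7%, 31.1%, 27.7% and 29.7%. The means thus fell from exon to exon up to Pcdhgc5-204, and the animals' ranges of the last 3 of these overlapped. Pcdhgc5-208 (chr18:37966064-37968631), with 187 CpGs, was nearly unmethylated, with a lowest, median and highest animal of 3.05%, 3.74% and 4.57%. Pcdhgc5-205 (chr18:37974733-37977637) averaged 22.2%. The last variable exon, Pcdhgc5-203 (chr18:37979200-37981788), was the highest of the cluster at 62.5%, with 57.3%, 61.8% and 70.3% as its lowest, median and highest animal. The 2 exons on its 5′ side thus had no animal above 26.6%, and Pcdhgc5-203 had none below 57.3%.

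The annotation lists only some of the variable exons, so open reading frames of at least 2000 bp on the plus strand were searched as well. This was added after the data had been seen. It found 14 alpha, 24 beta and 22 gamma frames, of which 4, 2 and 13 were not at an annotated first exon. With 1 kb upstream, the unannotated gamma frames had a median of 50.8% and the annotated ones of 32.0%. The fall along the gamma cluster was less regular in this fuller set. Levels rose again between several neighbours: the second frame (63.9%) lay above the first (58.3%), the seventh frame (41.7%) lay below the eighth (57.5%), and the eighteenth (41.3%) lay above both neighbours (27.7% and 28.8%). The 2 unannotated beta frames, at 87.5% and 82.6%, were above every annotated beta frame, the highest of which was at 68.5%.

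**Figure D2:**
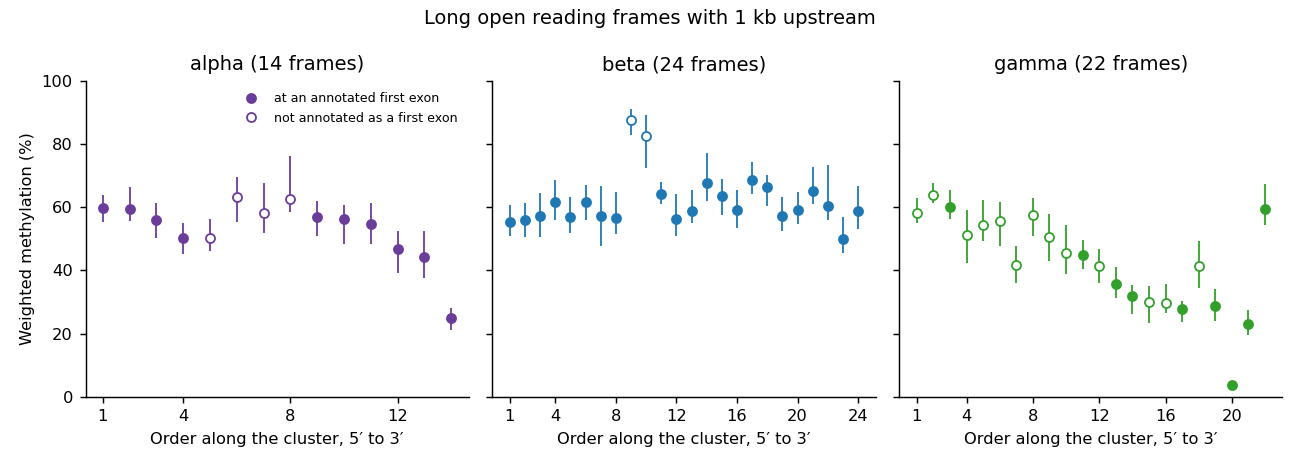
Weighted methylation (%) of open reading frames of at least 2000 bp with 1 kb upstream, by their order along each cluster. Points are means of 24 animals, lines run from the lowest to the highest animal, and filled points lie at annotated first exons. The alpha and gamma levels are lowest near the 3′ end (24.9% and 3.85%), and the last gamma frame is back at 59.5%.

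The CpGs upstream of the exons were less methylated than the exons in 35 of 41 windows, and in 25 of these the order held in all 24 animals. This was so for 9 of 10 alpha, 20 of 22 beta and 6 of 9 gamma windows. Over the 13819 windows of the genome with enough CpGs in both parts, the upstream part was the lower one in 17.0%, with medians of 17.4% upstream and 0.440% in the first exon. Exon length was not matched, and the member exons are long, with medians of 2394 bp in alpha, 3353.5 in beta and 2595 in gamma. Most alpha exons, and Pcdhb1, Pcdhb6 and Pcdhb8, are annotated as starting at the start of the open reading frame. Their upstream part is thus what lies just before the frame. How often this holds for the other windows was not counted, so the member and genome shares may compare unlike parts. The 41 include Pcdhb9 with 3 upstream CpGs and Pcdhb20 with 3 exon CpGs, under the limit of 5 for the genome. The alpha medians were 38.5% upstream and 57.9% in the exon, and the beta medians 43.1% and 62.8%. The gamma medians were 27.6% and 31.4%.

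The single exons varied widely around these medians. Upstream of Pcdhgc5-205, Pcdha11-202 and Pcdhgc5-208 the means were 2.95%, 3.28% and 4.03%, from 18, 54 and 38 CpGs. Upstream of Pcdhgc5-202 the mean was 81.9%, but from 5 CpGs, above its own exon (28.5%) in each of the 24 animals. This annotated exon starts at 37925234, before its open reading frame at 37925771. The 500 bp just before the frame had 15.25% from 9 CpGs.

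Around the start of the open reading frame the 3 clusters had different profiles. In the 500 bp before the start, the mean was 37.3% ± 1.56 (SD, n = 24) for beta, 28.0% ± 1.82 for alpha and 13.0% ± 1.08 for gamma. In the first 500 bp of the frame it was 53.9% ± 2.19, 31.2% ± 1.42 and 19.7% ± 1.69. From 500 to 1500 bp it rose to 71.7% ± 1.92, 58.5% ± 1.99 and 37.7% ± 1.84. These bands pool the CpGs of a cluster, and of the 148 alpha CpGs before the start, Pcdha11-202 held 47 and Pcdha11-201 held 24. Taken exon by exon, the first 500 bp of the frame were higher than the 500 bp before it in 19 of 22 beta, 5 of 10 alpha and 7 of 9 gamma exons. The median difference was 19.9 points in beta, -0.23 in alpha and 2.12 in gamma. The alpha exons ran from -16.6 points in Pcdha11-208 to 31.0 in Pcdha11-201.

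The beta profile had a narrow minimum 300 to 200 bp before the start, at 9.68% over 43 CpGs, with 7.60% in the lowest and 14.3% in the highest animal. Of the 22 beta exons, 21 had a CpG there, and 19 of these had a mean below 20%. The lowest was Pcdhb14 at 1.19% and the highest Pcdhb7 at 23.8%, each from 2 CpGs. The bin was picked from the profile, so its low value is a description. In the same bin the median over exons was 6.83% for beta, 5.33% for gamma and 41.5% for alpha.

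**Figure D3:**
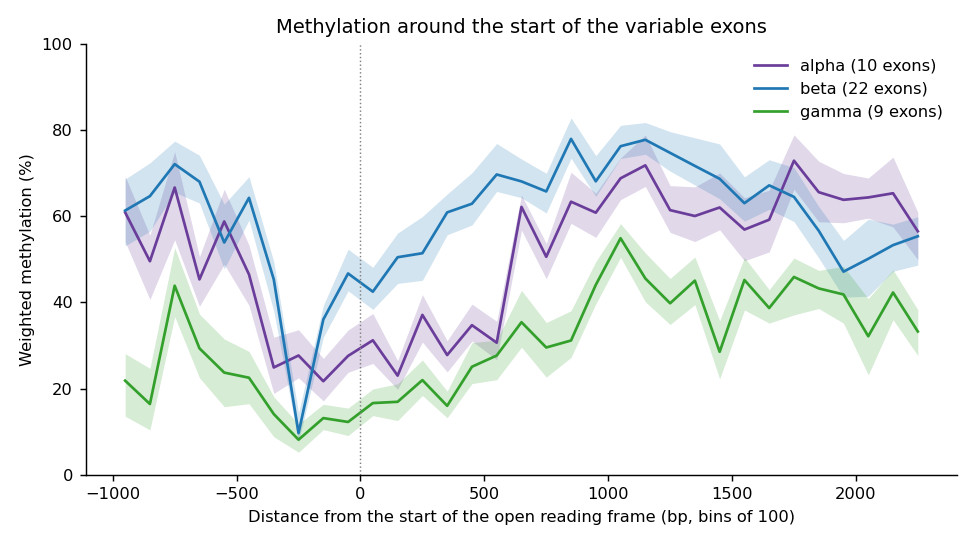
Weighted methylation (%) in bins of 100 bp by distance from the start of the open reading frame, for the annotated exons of each cluster. Lines are means of 24 animals and bands run from the lowest to the highest animal. Beta shows a minimum of 9.68% 300 to 200 bp before the start, and gamma lies below the other 2 clusters over most of the exon.

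CpGs of the locus away from the variable exons were more methylated than the cluster windows as a whole. The alpha constant exons were at 72.0% ± 2.48 (38 CpGs, SD, n = 24) and the gamma constant exons at 66.4% ± 3.38 (45 CpGs). CpGs of the clusters outside windows, frames and constant exons were at 69.4% ± 1.01 in alpha, 67.2% ± 1.43 in beta and 72.7% ± 1.00 in gamma.

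The comparison of B6 with C3 parents asked how far the inherited sequence goes with methylation. At the level of the whole window, 1 of 41 members passed the test, Pcdhgc5-205, against 11.9% of all 19927 windows (limma, Benjamini-Hochberg adjusted p below 0.05 over all windows). Its 6 B6 animals had a lowest, median and highest value of 18.9%, 20.6% and 21.9%, and its 6 C3 animals 22.1%, 25.3% and 26.6%. The C3 animals were all above the B6 animals. The difference, B6 minus C3, was -4.42 percentage points, or -0.36 ± 0.11 (SE) on the scale of the log2 ratio of methylated to unmethylated reads, with an adjusted p of 0.0310 from limma. Leaving out 1 animal took the adjusted p to between 0.0237 and 0.0973, and it stayed below 0.05 in 17 of 24 such fits. These include every fit without an F1 animal, which enters only the shared estimate of the spread and not this contrast. With the first exon alone the difference was -5.45 points and the adjusted limma p 0.0982. The animals whose loss raised the adjusted p of the whole window above 0.05 were all parents. They were B6 male 1, B6 females 2 and 3, C3 males 2 and 3 and C3 females 1 and 3.

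Other members differed less clearly between the strains. At an unadjusted p below 0.05 there were 5 members, including Pcdhgc5-205, but the share of all windows at that threshold was not counted. Pcdha11-205 had 56.8% ± 2.97 in B6 and 51.1% ± 1.72 in C3 (SD, n = 6), with an adjusted limma p of 0.0898. Pcdha11-201 went the other way, with 40.7% ± 1.69 against 45.5% ± 1.85 and an adjusted p of 0.0906. The 6 B6 and 6 C3 animals did not overlap for 4 members, Pcdha11-205, Pcdha11-201, Pcdhb5 and Pcdhgc5-205, or 4 of 41 against 6.29% of all windows. Over the 41 members the B6 value was higher in 17 and the C3 value in 24. By cluster B6 was higher in 6 of 10 alpha, 10 of 22 beta and 1 of 9 gamma members, with a gamma median of -1.03 points. The median of B6 minus C3 was -0.30 points over the 41 members and -0.32 over all windows. The median size of the difference was 1.03 points, and over all windows it was 1.11 points. Cell type markers also differed in direction between the strains: all 8 hepatocyte markers were higher in B6, by 0.31 to 7.91 points, while 5 of 6 leukocyte, 4 of 4 endothelial and 3 of 4 neuron markers were lower in B6. Only 2 of these 22 were called, and their part in the members' values was not tested.

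Within Pcdhgc5-205 a short stretch of the coding part of the exon differed more than the window as a whole. A region of 13 CpGs at chr18:37976693-37977115 met the criteria for a differentially methylated region (DMR): at least 75% differentially methylated CpGs (DMCs, p below 1e-05), 5 CpGs and 20 points. The 6 B6 animals had 43.3%, 52.4%, 55.4%, 54.5%, 52.2% and 51.2%, and the 6 C3 animals 78.1%, 78.7%, 75.6%, 81.1%, 72.6% and 78.7% (males 1 to 3, then females 1 to 3). No B6 animal reached the lowest C3 animal, and the means differed by 26.0 points. The region was called from these same animals by the size of their difference, so this separation is a description. Coverage was 32.0 reads per CpG in B6 and 28.6 in C3. The upstream part of the same window, at 2.95%, differed by -0.49 points.

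The F1 animals lay between the parents in this region. B6C3F1 averaged 61.0% ± 3.33 and C3B6F1 63.7% ± 2.77 (SD, n = 6), and the mean of the parental means was 64.5%. The lowest of the 12 F1 animals, at 56.5%, was above the highest B6 animal at 55.4%. The highest, at 68.6%, was below the lowest C3 animal at 72.6%. The list of sequence differences (SNVs) between the strains held 2 within the region.

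**Figure D4:**
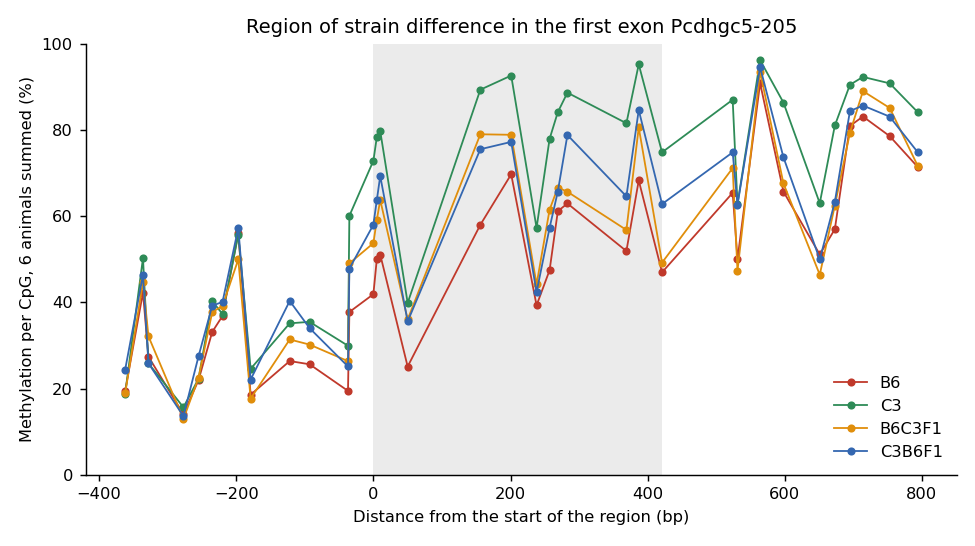
Methylation per CpG (%) by distance from the start of the strain region in Pcdhgc5-205, with the reads of the 6 animals of each strain or cross summed. The shaded band is the region of 13 CpGs. C3 is the highest and B6 the lowest at the CpGs within it. The lines run closer together before it, except next to it (37.8% in B6 and 60.1% in C3 at 35 bp before). After it C3 stays above B6 at every CpG shown.

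Counted per CpG, 13 of 4064 member CpGs tested were DMCs between the strains, or 0.320%, against 0.507% of the autosomal CpGs tested. The count was 7 with smoothing over 250 bp on either side and 8 without C3 female 1. All 13 were higher in C3. Of these, 11 lay in Pcdhgc5-205, with differences of 22.9 to 31.4 points, and 1 was within 10 bp of an SNV. The other 2 lay in Pcdhb3. At chr18 position 37462017 of mm9, B6 had 55.4% and C3 84.7%, from 177 and 72 reads in all, and at position 37462232, B6 had 25.6% and C3 61.1%, from 125 and 95 reads. Fewer reads were thus available in C3 at both Pcdhb3 sites. That window holds 33 SNVs, and their part in the result was not tested. The member windows held 1.68 SNVs per kb, against 0.895 over all windows tested, with 0.234 in alpha, 1.83 in beta and 2.73 in gamma.

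With the long open reading frames in place of the annotated exons, 2 of 60 were called between the strains, against 11.9% of all windows in that fit. One was the frame of Pcdhgc5-205, with an adjusted limma p of 0.0361. The other was the unannotated eighteenth gamma frame (chr18:37921533-37923764, 108 CpGs), with 39.1% ± 3.79 in B6 and 45.98% ± 2.32 in C3 (SD, n = 6) and an adjusted limma p of 0.0102.

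Taken by the 1 kb upstream alone, 6 of 39 members tested were called between the strains. That is 15.4%, near the 12.4% of all upstream parts. Upstream of Pcdhgc5-202, 5 CpGs had 75.6% ± 4.21 in B6 and 92.1% ± 3.17 in C3 (SD, n = 6), without overlap. Upstream of Pcdhb6, 14 CpGs had 40.2% ± 2.81 in B6 and 27.0% ± 3.34 in C3, again without overlap. The upstream part of Pcdhgc5-202 had the lowest coverage of the 39, at 15.2 reads per CpG. The whole windows of Pcdhgc5-202 and Pcdhb6 hold 22 and 25 SNVs, whose part in these differences was not tested. Pcdhb4 and Pcdha11-205 were also higher in B6, by 7.27 and 7.15 points, with overlapping animals. Pcdhb12 and Pcdhb3 were higher in C3, with B6 minus C3 at -8.35 and -7.67 points, and of these last 4 members only Pcdhb3 had no overlap between the strains. With Pcdhgc5-203, which was not called, 4 of 39 upstream parts did not overlap, against 6.37% of all upstream parts.

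Within the locus 1 further strain DMR lay outside the member windows, between the beta and gamma clusters. Chromosome 18 held 84 strain DMRs, with 0.108% of its tested CpGs, and the DMR in Pcdhgc5-205 held 0.320% of the tested member CpGs. No other comparison had a DMR in the locus, against 0 to 42 on the chromosome. The strain DMR outside the member windows spans 15 CpGs at chr18:37802721-37803280. It covers part of an intron and of the next exon, with UTR and coding bases, of Taf7. This gene encodes a subunit of the general transcription factor TFIID and lies on the minus strand. B6 had 59.3% ± 5.24 and C3 30.9% ± 3.91 (SD, n = 6), the F1 animals 44.2% to 60.8%.

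The reciprocal crosses carry the same nuclear autosomes and differ in which strain was the dam. No member window passed the limma test between B6C3F1 and C3B6F1, against 0.0301% of all windows at the adjusted p. At an unadjusted p below 0.05 there were 2 of 41 members. No member CpG was a DMC by the Wald test, against 0.0015% of the autosomal CpGs tested. At an unadjusted p below 0.05 there were 223 of 4109 member CpGs, or 5.43%. That threshold alone lets through a share of about 0.05 where nothing differs. The largest difference was in Pcdha11-201. Its 6 B6C3F1 animals had a lowest, median and highest value of 37.7%, 40.5% and 45.4%, and its 6 C3B6F1 animals 46.9%, 49.7% and 52.5%. The crosses did not overlap, as in 0.462% of all windows. Its difference of -8.19 points had an unadjusted limma p of 0.000129 and an adjusted p of 0.200, and leaving out 1 animal gave adjusted p-values of 0.0672 to 0.472. It did not pass the threshold in any of these fits. Its C3B6F1 mean (49.6%) was above both parental strains and its B6C3F1 mean (41.4%) was near that of B6 (40.7%). Called or not, B6C3F1 was lower than C3B6F1 in 5 of 10 alpha, 13 of 22 beta and 8 of 9 gamma members. The median of B6C3F1 minus C3B6F1 was -0.45 points over the 41 members and -0.18 over all windows.

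No member was called between the sexes or between parents and F1 animals. No comparison isolates parity: dams and F1 females also differ as inbred strains and hybrids, and dams and sires also differ by sex. Between sires and dams limma called 0 of 41 members, against 0.351% of all windows, and between dams and F1 females 0, against 0.115%. Between sires and F1 males it called 0, against 0.0502%, and between F1 males and F1 females 0, against 0.166%. The test of whether the sire-dam difference depends on strain called 0, against 0.0100%. These shares of all windows are at the adjusted p. At an unadjusted p below 0.05 there were, in the same order, 0, 2 (Pcdhb13 and Pcdhb14), 0, 1 (Pcdhb20) and 1 (Pcdhb6) members. The share of all windows at that unadjusted threshold was not counted.

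The Wald test per CpG likewise gave 0 member DMCs in the sire-dam, dam-F1 female, sire-F1 male and F1 male-F1 female comparisons. The genome-wide shares of DMCs, at p below 1e-05, were 0.122%, 0.0228%, 0.000269% and 0.0649%. At an unadjusted p below 0.05 the same comparisons had 182, 208, 143 and 193 of 4109 member CpGs, or 4.43%, 5.06%, 3.48% and 4.70%. That threshold alone lets through a share of about 0.05 where nothing differs. The direction of the differences, called or not, was uneven in places. In the beta cluster 21 of 22 members were lower in dams than in F1 females, with a median difference of -1.47 points (all 41 members -0.82, all windows -0.05). In the beta cluster 17 of 22 were lower in sires than in F1 males. Gamma went the other way in both, with 7 of 9 members higher in dams (a median of 0.34 points) and 7 of 9 higher in sires (1.05 points). Both comparisons contrast parents with F1 animals of one sex. Among the F1 males, C3B6F1 male 3 had a beta level of 64.5% and the others 58.2% to 61.1%. Among the F1 females, B6C3F1 female 3 had 64.2% and the others 58.5% to 61.9%. The part of these animals in the beta counts was not tested. Sires were lower than dams in 8 of 10 alpha, 8 of 22 beta and 7 of 9 gamma members. F1 males were lower than F1 females in 6 of 10 alpha, 13 of 22 beta and 8 of 9 gamma members. The median of sires minus dams was -0.26 points over the 41 members and 0.10 over all windows. For F1 males minus F1 females the medians were -0.49 and 0.13 points. For the strain dependence of the sire-dam difference (sires minus dams in B6, less the same in C3) 34 of 41 members were negative, with a median of -2.05 points (all windows 0.86). These comparisons share animals with each other, members lie side by side on one chromosome, and the counts were given no test. The largest member differences in these 4 comparisons ran from 3.15 points (sires against dams) to 6.20 points (F1 males against F1 females), and for the strain dependence the largest was -7.51 points, in Pcdhb6.

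Animals of the same strain and sex varied in these windows by more than a binomial counting SD. That SD takes every count at every CpG of a window as independent. A read can cover several CpGs, so the counting SD can be too small, by an amount that was not measured. The SD between animals, pooled over the 8 groups, had a median of 2.62 points in alpha, 2.70 in beta and 2.22 in gamma. The binomial counting SD had medians of 0.850, 1.01 and 0.824 points. The ratio of the SD between animals to the counting SD had a median of 2.72 over the members and 1.45 over all windows tested. Windows with many reads have a small counting SD: over the 664 windows with 20% to 80% methylation and as many CpGs as the members other than Pcdhb20, the median ratio was 2.84 and the median SD 3.42 points. The members had medians of 2.72 and 2.52 points, and by cluster the median ratio was 3.07 in alpha, 2.65 in beta and 2.55 in gamma. Those windows differ from the members in level, with a median of 27.6% against 56.8%. Their counts, summed over CpGs and all animals, had a median of 33731 against 66487. Both measures depend on level and counts.

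The most variable members were Pcdhb20 (4.63 points, with a counting SD of 2.99), Pcdhb7 (4.23 points) and Pcdhb11 (3.30 points) in beta. In alpha they were Pcdha11-205 (3.66), Pcdha11-209 (3.05) and Pcdha11-206 (2.98), and in gamma Pcdhgc5-203 (3.14), Pcdhgc5-207 (2.40) and Pcdhgc5-201 (2.35). Pcdhb7 ran from 51.8% in B6 male 3 to 68.2% in B6C3F1 female 3. The nearly unmethylated Pcdhgc5-208 varied least, by 0.385 points.

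**Figure D5:**
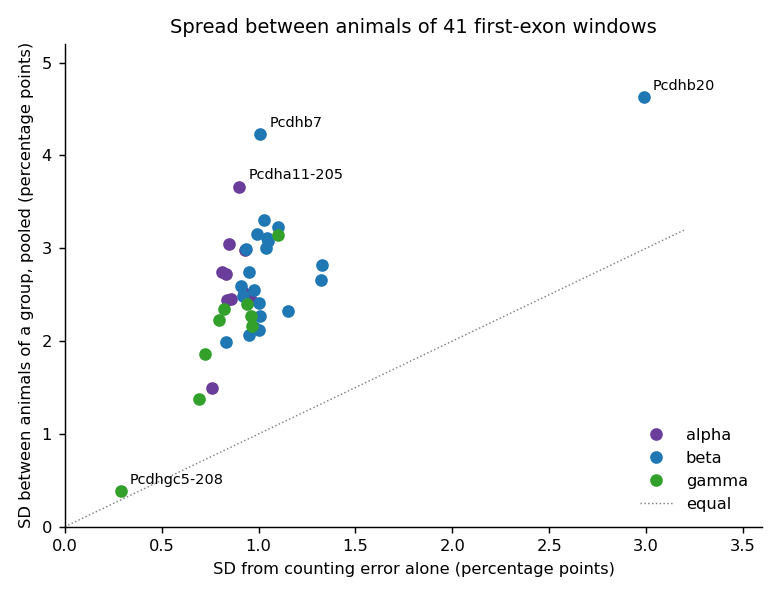
SD between animals of a group (pooled over 8 groups, percentage points) against the SD from counting error alone (percentage points), 1 point for each of the 41 windows. All points lie above the dotted line of equal values, from Pcdhgc5-208 (0.385 against 0.288) to Pcdhb20 (4.63 against 2.99).

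Related genes were looked at in the same way. The 10 non-clustered protocadherins, adhesion molecules with promoters outside the clusters, had a median window methylation of 9.14%, from 0.359% in Pcdh1 to 73.8% in Pcdh9. Between B6 and C3, where 11.9% of all windows were called, 3 of these 10 were called, all higher in C3: Pcdh7 (8.39% against 11.8%), Pcdh17 (5.35% against 7.20%) and Pcdh12 (66.1% against 71.7%). Of 13 tested regulators of the clusters, 1 was called, Smchd1, a chromatin protein of the SMC family, with 2.32% in B6 and 0.989% in C3. Ctcf, whose product binds the promoters of the variable exons, was at 1.49%. Of 16 neighbouring genes 2 were called, Cd14 (50.3% in B6, 28.8% in C3) and Tmco6 (14.2% and 24.2%). For the regulators and the neighbours these shares are near that of all windows. No gene of these 3 lists was called in any of the other 6 comparisons. Among the markers, 2 of 8 hepatocyte genes were called between the strains, Apoa2 and Fgb (both higher in B6), and 0 of 6 leukocyte, 0 of 4 endothelial and 0 of 4 neuron markers. With 11.9% of all windows called, lists this short say little.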

How the data were processed

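The authors aligned bisulfite reads to mm9 with Bismark 0.7.8 and Bowtie 0.12.8 (per the submitters' processing notes), removed duplicates, kept CpGs whose context held in both strains, and deposited whole-number counts of methylated and unmethylated reads per CpG and animal. The deposited list of SNVs, in which the B6 and C3 bases differ at all 2867244 positions, was used to mark CpGs within 10 bp. All 48 count columns were used (0 were left out). A further set of chromatin samples was not analysed here. The members and lists were chosen with earlier results of these data known.

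Counts were summed over each first exon with 1000 bp upstream (GENCODE vM1). For the member genes every distinct first exon gave a window. Overlapping first exons of a member gene were taken once, from the most upstream start, and exons under 100 bp were left out. Each other gene gave 1 window, from its most upstream protein-coding start. Windows with at least 5 CpGs and 30 counts in every animal were tested with limma 3.58.1 (R 4.3.3; trend and robust) on log2((methylated + 1)/(unmethylated + 1)), with 8 group means over all 24 animals and Benjamini-Hochberg adjustment. A CpG was tested singly where 50% or more of the mice on either side of the comparison had 5 reads or more there, by a beta-binomial Wald test after the model of DSS, without smoothing, called at 1e-05 unadjusted. DMRs needed runs of at least 75% DMCs, 5 CpGs, 50 bp, 20 points, group depth of at most 500 and a depth ratio of at most 5. Both tests were tested on simulated data. All tests were two-sided.

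The named members were the 3 lowest and 3 highest per cluster, every called member, and the 3 with the largest SD per cluster. Others (such as Pcdha11-205 and Pcdhb5 in the strain comparison) were chosen after their values were seen. Lists of non-clustered protocadherins, regulators, neighbouring genes and cell type markers were counted. Animals of a group are separate mice. The labels do not tie replicate numbers to families, and of 28 pairs of groups 0 had same-numbered animals that all deviated together (correlation above 0.1).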

Additional observations from a re-analysis of the deposited data

Results flagged for a closer look

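Among the 6 animals of each strain or cross, 7 values lay apart from the rest by Dixon's 95% criterion (the gap to the nearest animal against the whole range), of 104 groups of 6 looked at. Chance alone gives about 1 in 20. Of the members flagged, Pcdhb7, Pcdhb11, Pcdha11-206 and Pcdhgc5-201 had been named for a large SD between animals, so that rate is no fair measure here. In Pcdha11-203, B6 male 3 was at 41.7%, below the next animal at 46.6%. In Pcdha11-206, C3 male 1 was at 47.8%, below the next at 54.0%. B6C3F1 female 3 was above the rest of its cross in Pcdhb11 (64.5%, next 60.1%), Pcdhb15 (73.2%, next 69.2%) and Pcdhb7 (68.2%, next 61.4%). C3B6F1 male 3 was above the rest in Pcdhb12 (76.5%, next 69.2%). In Pcdhgc5-201, C3B6F1 male 1 was at 28.2%, below the next at 32.8%. B6C3F1 female 3 and C3B6F1 male 3 were also the highest of their crosses over the whole beta cluster, at 64.2% and 64.5%, and over the alpha cluster, at 54.4% and 54.9%. C3B6F1 male 3 had the lowest coverage of the member CpGs of all 24 animals (17.6 reads per CpG) and B6C3F1 female 3 had 33.5. The part of depth in these values was not tested.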

How the results depend on the processing

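Between B6 and C3, 1 called member became 0 with the first exon alone or with a difference of at least 20 or 10 points, 6 with the 1 kb upstream alone and 2 of 60 with long open reading frames (the last added after the data were seen). Leaving out 1 animal gave 0 to 2, with 2 without C3 female 2. With the replicate block the count remained 1, and it was 0 in each of the other 6 comparisons, as in every other alternative and with any animal left out. Pcdhgc5-205 had an adjusted p of 0.0982 with the first exon alone and 0.0323 with the replicate block. The same-numbered animals share only a number. Strain DMCs (13) became 7 with smoothing, and 8 to 13 with an animal left out, the lowest without C3 female 1. Reciprocal DMCs (0) became 2, and dam-F1 female DMCs (0) became 1, at 1e-04, and either was 0 to 1 with an animal left out (1 without B6C3F1 female 3 for the first, and without C3 female 1, B6C3F1 female 2 or C3B6F1 female 1 for the second). The other DMC counts remained 0. With the 1 kb upstream alone, cluster levels were 33.4% in alpha, 43.9% in beta and 24.2% in gamma, and median SDs between animals 3.47, 3.69 and 3.59 points. With the first exon alone alpha was 54.0% and beta 62.7%. With long open reading frames alpha was 53.3% and gamma 40.4%. Unweighted over CpGs alpha was 53.6%. The order beta, alpha, gamma of the mean levels held with the exon alone, upstream alone and long frames. Leaving out 1 animal moved the alpha level between 50.8% and 51.1%, beta between 59.9% and 60.2%, and gamma between 31.7% and 31.9%, and the median SD between 2.42 and 2.71 points in alpha, 2.55 and 2.79 in beta, and 2.00 and 2.29 in gamma. The depth limits what a single CpG shows, and isoform names were limited by the annotation. Reads without molecular identifiers are not independent molecules, and neighbouring CpGs on a read are not independent counts, so the counting SDs can be too small.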
